A study of Mus musculus with 8 samples.

Results

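A set of 10 genes of immature neurons and growing axons was followed in layer IV of the mouse visual cortex. They are Marcksl1, Gap43, Stmn1, Stmn2, Crmp1, Dpysl3, Dcx, Tubb3, Tubb2b and Sox11, a list set by gene name, and they make 10 of the 34980 genes in the count files. Each gene was read from the transcript with the highest total count over the 6 libraries. All 10 passed the filter on low counts, with 59 to 3111 counts per library, and so belong to the 15841 genes tested. The study asked how gene expression in this layer depends on age and on the Otx2 gene, a homeodomain transcription factor, around the critical period in which visual experience shapes cortical circuits. Layer IV was dissected by hand from mice of the B6D2 background, and total RNA was sequenced from tissue pooled from 4 mice per condition. There were 2 libraries each of Otx2 heterozygotes at postnatal day 30 (P30), of Otx2 +/+ wild type at postnatal day 100 (P100), and of wild type at P30. The sample labels give the heterozygous genotype as Otx2 +/-, while the design text gives it as +/GFP, and neither names a promoter or cell type to which the allele is restricted. The heterozygous P100 samples were not analysed here, so an effect of age was measured in wild type alone. How the duplicates were made is not stated, so p-values reflect library-to-library spread, part or all of which may be technical.

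Newborn neurons move through the cortex and extend axons on a cytoskeleton that is being assembled and taken apart. Doublecortin and the tubulins build and bundle the microtubules, stathmins bind free tubulin and keep microtubules dynamic, collapsin response mediator proteins pass guidance signals to the cytoskeleton, and Gap43 and Marcksl1 are membrane-bound protein kinase C substrates that act on actin in growth cones. Most of these genes are known for high expression in the embryonic and newborn cortex and much lower expression once circuits are built. Gap43 and Stmn2 are among those that adult neurons go on using, at synaptic terminals and in axon repair.

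Promoter windows are shown for Marcksl1 and Crmp1, the members lower at P100 for which the table of RefSeq promoters holds a window that ends just before the start of the counted transcript. The windows cover 250 bases, 5′ to 3′ on the strand of the gene, in build GRCm38.p6, at chr4:129513331-129513580 for Marcksl1 and chr5:37245514-37245763 for Crmp1, both on the plus strand. Capitals mark matches to GGGCGG or its reverse complement, the GC box.
Marcksl1: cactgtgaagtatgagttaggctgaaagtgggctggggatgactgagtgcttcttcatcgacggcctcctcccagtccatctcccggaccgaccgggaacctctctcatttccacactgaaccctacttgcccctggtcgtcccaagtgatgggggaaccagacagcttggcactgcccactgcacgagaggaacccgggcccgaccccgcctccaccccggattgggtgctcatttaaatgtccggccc
Crmp1: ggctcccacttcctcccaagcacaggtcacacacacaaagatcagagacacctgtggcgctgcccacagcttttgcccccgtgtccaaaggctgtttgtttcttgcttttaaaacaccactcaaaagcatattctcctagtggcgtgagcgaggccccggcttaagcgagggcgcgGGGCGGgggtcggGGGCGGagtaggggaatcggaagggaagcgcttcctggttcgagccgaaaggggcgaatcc
The Marcksl1 window held 12 CpG dinucleotides and 60.4% G and C, and the Crmp1 window 16 CpG and 59.6%, against medians of 6 CpG and 52.4% over 32851 promoters. Searched on both strands, the Crmp1 window held 2 GC boxes, a motif in 32.7% of all promoters, and the Marcksl1 window none. Neither window held TAATCC, the core recognised by Otx-type homeodomains (6.25% of promoters), TGANTCA, the AP-1 site (6.75%), TGACGTCA, the cAMP response element (1.55%), the E-box CAGCTG (13%) or the TATA box letters TATAAA (12.4%). RefSeq gives a second Crmp1 window further upstream, at chr5:37241808-37242057, with 30 CpG, 75.6% G and C and 5 GC boxes. The other Crmp1 transcript had 95.8% to 97.7% of the counts of the counted one, so the start in use was not resolved. RefSeq windows for Tubb3, Sox11 and Dcx do not end at the start of the counted transcript and are not printed. Stmn1, Stmn2, Gap43, Tubb2b and Dpysl3 were not in the table used.

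Gene-level totals ran from 11016841 to 15308781 counts per library. All levels below are CPM, a count relative to the TMM-scaled library total. Sex-linked transcripts separated the genotypes. Xist had 784.8 and 924.4 CPM in heterozygous mice, against 0.264 to 0.639 CPM in wild-type mice. Ddx3y, on the Y chromosome, had 2.48 and 1.04 CPM in heterozygous mice, against 145.7 to 155.7 CPM in wild-type mice. Genotype and sex of the pools therefore cannot be told apart. Otx2 had 0 counts in every library but heterozygous replicate 2, where it had 73, so its counts do not check the genotype. That library also held 8966 counts of the choroid plexus transcript Ttr, against 0 or 1 in the others, so the heterozygous comparisons of the 10 genes and their relatives are also given without it. In pooled tissue, fewer cells of a type and less RNA per cell cannot be told apart.

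Per kilobase of transcript, the 10 genes covered a wide range of levels. Gap43, with a mean of 92.4 CPM per kilobase over the 6 libraries, and Stmn2, with 91.3, stood highest, at percentiles 96.9 and 96.8 of the 15515 tested genes with a known length. Their ranges over libraries overlapped, at 70.7 to 112.8 and 73.3 to 104.2. Tubb3 followed at 59.6 CPM per kilobase (51.3 to 67.9) and Crmp1 at 32.0 (24.6 to 37.1), each apart from its neighbours in every library. Dcx at 13.6, Dpysl3 at 11.5, Marcksl1 at 10.3 and Stmn1 at 7.55 CPM per kilobase lay around the median gene, at 7.395, and each overlapped the next in its range. Tubb2b followed at 5.53 (5.11 to 6.15), overlapping the range of Stmn1. The levels and ranks of Stmn1 and Tubb2b are uncertain, as 38.2% and 39.3% of their 50-base stretches also occur in other genes. Sox11 was lowest at 0.800 CPM per kilobase (0.605 to 1.05), at percentile 11.3 and below every other member in every library.

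**Figure D1:**
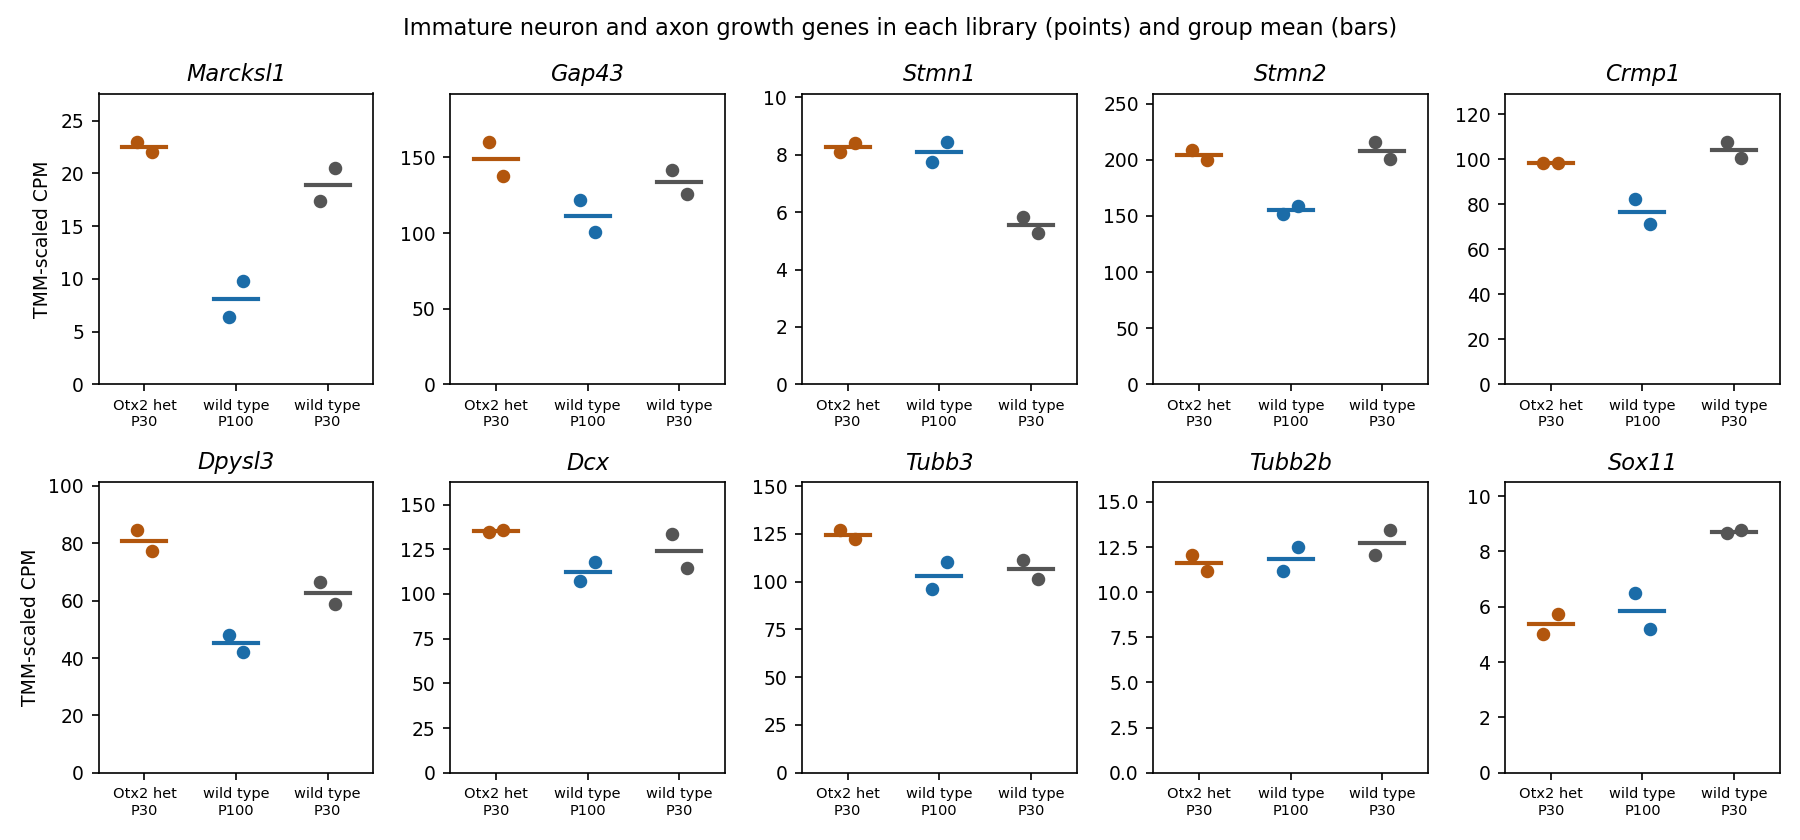
TMM-scaled CPM of each gene (vertical axes, linear and starting at 0) in the 2 libraries of each group (points) with the group mean (bars). Marcksl1, Gap43, Stmn2, Crmp1 and Dpysl3 lie lowest in both wild-type P100 libraries, while Stmn1 lies lowest and Sox11 highest in both wild-type P30 libraries.

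In wild-type mice, 4 of the 10 genes fell between P30 and P100: Marcksl1, Stmn2, Crmp1 and Dpysl3, with an adjusted p under 0.05 in edgeR's quasi-likelihood test with Benjamini-Hochberg adjustment over all genes tested. Of all genes tested, 4.54% were called lower, 3% higher and 7.54% in either direction, and no member was called higher. Among the 10, the largest difference was that of Marcksl1, at 2.38-fold lower, while the other 3 lay between 1.34-fold and 1.38-fold. The median log2 difference of the 10 genes was -0.34, with 9 below 0, against 0.000565 over all genes tested. As the 10 genes were chosen with earlier results of these data known, this contrast is a description and not a test. Dcx, Tubb3 and Tubb2b, the doublecortin and tubulin genes of the set, had intervals that included 0.

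Marcksl1 (ENSMUSG00000047945, chr4:129513581-129515985, plus strand, 2 exons, with all gene coordinates in mm10) encodes a membrane-bound protein that releases actin regulators and calmodulin on phosphorylation. It stood at 23.0 and 22.0 CPM in heterozygous P30 libraries, 6.37 and 9.77 CPM in wild-type P100 libraries, and 17.3 and 20.5 CPM in wild-type P30 libraries. Both P100 libraries lay below all 4 libraries from P30, with no overlap. Its log2 difference at P100 over P30 was -1.25 (SE 0.18, 95% interval -1.63 to -0.88, edgeR adjusted p = 9.62e-04), and it passed the threshold under all 17 alternative settings, between -1.57 and -0.96. The second membrane-bound substrate, Gap43 (chr16:42248442-42340651, minus strand), a growth cone protein that is retained at some adult terminals, stood at 160.2 and 137.6 CPM in heterozygous P30 libraries, 121.7 and 100.4 CPM at wild-type P100, and 142.0 and 125.7 CPM at wild-type P30. The P100 libraries lay below those of P30, though one of them by little. The log2 difference was -0.26 (SE 0.10, 95% interval -0.48 to -0.05), with an adjusted p = 0.136 in edgeR that missed the threshold. Without wild-type P100 replicate 1 it was -0.42 (edgeR adjusted p = 0.0855), and without wild-type P100 replicate 2 it was -0.13 (edgeR adjusted p = 0.608).

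Of the 2 stathmins, 1 passed the test. Stmn2 (chr3:8509360-8561606, plus strand), the neuronal stathmin of growth cones that is also needed to maintain adult axons, stood at 208.5 and 199.8 CPM in heterozygous P30 libraries, 152.0 and 159.1 CPM at wild-type P100, and 215.9 and 200.5 CPM at wild-type P30. The P100 libraries were the lowest of the 6, and the P30 libraries of both genotypes lay close together. The log2 difference with age was -0.42 (SE 0.07, 95% interval -0.57 to -0.27, edgeR adjusted p = 0.00305), past the threshold under all 17 alternatives. Stmn1 (chr4:134468320-134473843, plus strand), the stathmin of dividing and newborn cells, had 8.11 and 8.40 CPM in heterozygous P30 libraries, 7.74 and 8.45 CPM at wild-type P100, and 5.84 and 5.28 CPM at wild-type P30. Here the wild-type P30 libraries were lowest, opposite in direction to Stmn2. The log2 difference of 0.54 at P100 over P30 (SE 0.18, 95% interval 0.16 to 0.92) had an edgeR adjusted p = 0.0802 and was past the threshold in none of the 17 alternatives. Of the 50-base stretches of the Stmn1 transcript, 38.2% also occur in the pseudogene Gm11223, so reads may be split between the copies. Gm11223 itself stood at 57.7 and 54.9 CPM in heterozygous P30 libraries, 45.6 and 46.5 CPM at wild-type P100, and 52.0 and 45.4 CPM at wild-type P30. It lay above Stmn1 in every library and did not share its direction with age, at a log2 difference of -0.08 (edgeR adjusted p = 0.684). With genotype at P30 its log2 difference was 0.21 (edgeR adjusted p = 0.267). The direction of Stmn1 with age is therefore uncertain.

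Both collapsin response mediator proteins fell with age. Crmp1 (chr5:37241940-37292133, plus strand), a tubulin-binding mediator of semaphorin signalling, stood at 98.3 CPM in both heterozygous P30 libraries, 82.2 and 71.4 CPM at wild-type P100, and 107.7 and 100.6 CPM at wild-type P30. Its P100 libraries lay below the other 4, with a log2 difference of -0.44 (SE 0.09, 95% interval -0.62 to -0.25, edgeR adjusted p = 0.00797). Dpysl3 (chr18:43320984-43438286, minus strand), also named CRMP4, which binds actin and tubulin in growth cones, stood at 84.5 and 77.2 CPM in heterozygous P30 libraries, 48.0 and 42.1 CPM at wild-type P100, and 66.4 and 58.8 CPM at wild-type P30. The 3 groups did not overlap, with heterozygous libraries highest and wild-type P100 libraries lowest. Its log2 difference with age was -0.47 (SE 0.10, 95% interval -0.69 to -0.25, edgeR adjusted p = 0.0137). Both calls rested on particular libraries. Without wild-type P30 replicate 1 the edgeR adjusted p was 0.0533 for Crmp1 and 0.077 for Dpysl3, and without wild-type P100 replicate 2 it was 0.105 and 0.131, so that 2 of the 10 genes were called lower in either case.

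Dcx and the tubulins Tubb3 and Tubb2b did not pass the test for age. Dcx (chrX:143855842-143933311, minus strand), the doublecortin of migrating neurons, stood at 134.7 and 135.5 CPM in heterozygous P30 libraries, 107.2 and 117.6 CPM at wild-type P100, and 133.6 and 114.4 CPM at wild-type P30. The wild-type groups overlapped, with a log2 difference of -0.14 at P100 over P30 (95% interval -0.32 to 0.04, edgeR adjusted p = 0.355). Tubb3 (chr8:123411424-123422015, plus strand), the neuron-specific beta tubulin, stood at 126.7 and 122.2 CPM in heterozygous P30 libraries, 95.9 and 110.3 CPM at wild-type P100, and 111.1 and 101.6 CPM at wild-type P30. Again the wild-type groups overlapped, and the interval of -0.23 to 0.14 leaves room for a difference of either sign (log2 -0.05, edgeR adjusted p = 0.805). Tubb2b (chr13:34126748-34130466, minus strand), a beta tubulin of the developing brain, had 12.1 and 11.2 CPM in heterozygous P30 libraries, 11.1 and 12.5 CPM at wild-type P100, and 12.1 and 13.4 CPM at wild-type P30. All 3 of its groups overlapped, with a log2 difference of -0.12 at P100 over P30 (95% interval -0.42 to 0.19, edgeR adjusted p = 0.687). As 39.3% of its 50-base stretches occur in other genes, Tubb2a above all, its counts are uncertain to that extent.

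Sox11 (chr12:27334264-27342574, minus strand, 1 exon), a SoxC transcription factor that switches on genes of neuronal differentiation, had 5.03 and 5.73 CPM in heterozygous P30 libraries, 6.51 and 5.19 CPM at wild-type P100, and 8.67 and 8.76 CPM at wild-type P30. The wild-type P30 libraries were the highest, and the other groups overlapped each other. Its log2 difference at P100 over P30 was -0.57 (SE 0.19, 95% interval -0.96 to -0.17) with an edgeR adjusted p = 0.0831. With no filter on low counts, Sox11 (edgeR adjusted p = 0.0439) and Gap43 (edgeR adjusted p = 0.031) passed as well, for 6 of the 10 genes called lower. Their log2 differences in that fit, -0.57 and -0.27, were close to those with the filter. Over all genes, the unfiltered fit called 1096 lower, against 719 in the main one. With 59 to 126 counts per library, Sox11 and Stmn1 (64 to 129) were the least sampled members and had the widest intervals beside Marcksl1. By ranges alone, 6 of the 10 genes had both P100 libraries below both wild-type P30 libraries, as did 25.7% of all genes tested, and 1 had both above, as did 25.5%. In the authors' deposited table, the same 4 genes passed an adjusted p of 0.05, with log2 differences of -1.23 for Marcksl1, -0.42 for Stmn2, -0.44 for Crmp1 and -0.47 for Dpysl3.

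**Figure D2:**
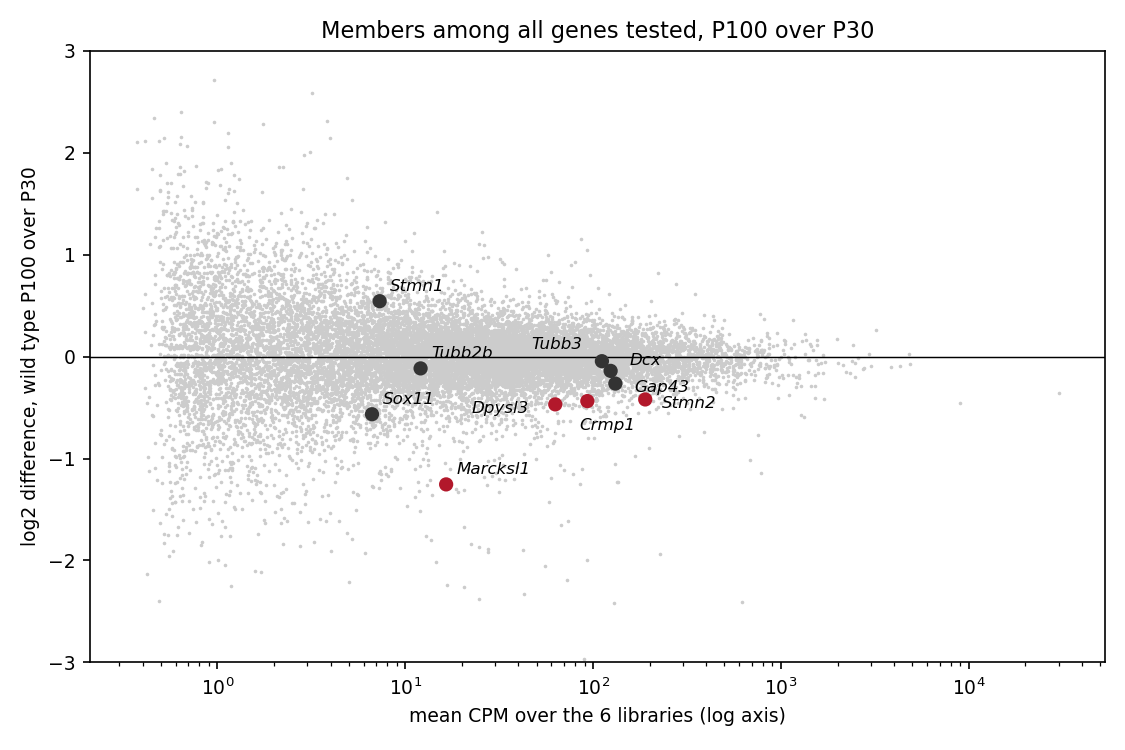
Log2 difference of wild-type P100 over wild-type P30 (vertical axis) against mean CPM over the 6 libraries (horizontal log axis) for all 15841 genes tested (grey), with the 10 genes as large points, red where the adjusted p was under 0.05. Marcksl1, at -1.25, lies apart from the other called members, which lie between -0.47 and -0.42, and 9 genes lie outside the axis.

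Several markers of other cells fell with age in the same libraries. Of 9 tested markers of oligodendrocyte precursors, 5 were called lower at P100 and none higher, and the summed level of the list was 453.2 and 414.5 CPM at wild-type P100, against 540.1 and 578.3 CPM at wild-type P30. Of 8 markers of newly formed oligodendrocytes 5 were lower, at 308.6 and 274.2 CPM against 420.0 and 408.6 CPM, and all 10 markers of myelinating oligodendrocytes were lower, at 1848 and 1560 CPM against 3363 and 3221 CPM. Deep layer neuron markers summed to 322.5 and 253.1 CPM at P100, against 367.7 and 336.0 CPM at P30, with 2 of 10 called lower. Of 10 markers each, 3 of astrocytes, 2 of microglia and 3 of endothelial and mural cells were called lower. Of the layer 4 neuron markers 3 were lower and 1 higher, and they summed to 1769 and 1799 CPM at P100, against 1951 and 2058 CPM at P30. Summed levels of the astrocyte, microglia, and endothelial and mural cell lists were also lower in both P100 libraries, while that of dentate granule neuron markers was higher. Among 15 activity-regulated genes, all were lower at P100. No marker of these lists was at 0 in all libraries. The part of these cells and of neuronal activity in the differences of the 10 genes was not tested.

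Between heterozygous and wild-type mice at P30, none of the 10 genes passed the threshold. Of all genes tested, 0.903% were called higher, 2.32% lower and 3.23% in either direction in heterozygous mice. At an unadjusted p under 0.05, 4 of the 10 genes differed, as did 17.3% of all genes: Dpysl3, Stmn1 and Tubb3 with higher and Sox11 with lower levels in heterozygous libraries. Run on the same counts, DESeq2 called 0 members and limma-voom 1, Dpysl3. The median log2 difference of the 10 genes was 0.14, against 0.00295 over all genes.

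Dpysl3 averaged 80.8 ± 5.13 CPM in heterozygous libraries and 62.6 ± 5.34 CPM in wild-type libraries at P30 (SD, n = 2 each). Its log2 difference was 0.37 (SE 0.10, 95% interval 0.16 to 0.58), with an edgeR adjusted p = 0.0549 next to the threshold, and 6 of 17 alternatives called it, with adjusted p-values from 0.00758 to 0.397. Without heterozygous replicate 2 the log2 difference was 0.43 (edgeR adjusted p = 0.0858), and without wild-type P30 replicate 1 it was 0.46 (edgeR adjusted p = 0.0494). It was 0.31 (edgeR adjusted p = 0.397) without heterozygous replicate 1 and 0.28 (edgeR adjusted p = 0.288) without wild-type P30 replicate 2. In the authors' deposited table its adjusted p was 0.0576. Sox11 lay on the other side, with both heterozygous libraries below both wild-type ones. It averaged 5.38 ± 0.496 CPM in heterozygous libraries and 8.72 ± 0.0611 CPM in wild-type libraries at P30 (SD, n = 2 each), a log2 difference of -0.70 (SE 0.18, 95% interval -1.09 to -0.30, edgeR adjusted p = 0.0568) that 2 of 17 alternatives called. Stmn1 had a log2 difference of 0.57 (95% interval 0.20 to 0.95, edgeR adjusted p = 0.0923), of about the size of its difference with age. Of 17 alternatives 1 called it, that of counts summed over transcripts. Without heterozygous replicate 2 no member was called, with a log2 difference of -0.79 for Sox11 (edgeR adjusted p = 0.117) and 0.55 for Stmn1 (edgeR adjusted p = 0.28). Since wild-type P30 is the base of the age and the genotype comparison alike, its low Stmn1 and high Sox11 values enter both.

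The remaining members had smaller differences at P30. Tubb3 had a log2 difference of 0.23 (0.05 to 0.41), with both heterozygous libraries above both wild-type ones, and Marcksl1 one of 0.24 (-0.09 to 0.57), also without overlap. Gap43 stood at 0.16 (-0.06 to 0.37), Dcx at 0.13 (-0.05 to 0.31), Crmp1 at -0.08 (-0.26 to 0.10) and Tubb2b at -0.14 (-0.44 to 0.17). Stmn2, at -0.03 (-0.18 to 0.12), had the narrowest interval, which leaves room for no more than 0.18 on the log2 scale in either direction. The edgeR adjusted p-values of these genes ran from 0.168 to 0.880. Without heterozygous replicate 2 the log2 differences were 0.27 for Marcksl1, 0.26 for Gap43, 0.25 for Tubb3, 0.12 for Dcx, 0.0022 for Stmn2 and -0.083 for both Tubb2b and Crmp1, with edgeR adjusted p-values from 0.307 to 0.996. Dcx lies on the X chromosome, but for every member a difference of sex and one of genotype cannot be told apart. By ranges, 5 members had both heterozygous libraries above both wild-type P30 libraries, against 24.5% of all genes, and 2 had both below, against 24.4%.

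Beside these differences, deep layer neuron markers summed to 461.4 and 407.4 CPM in heterozygous libraries, against 367.7 and 336.0 CPM in wild-type libraries at P30, with 2 of 10 called higher. Layer 4 neuron markers summed to 1751 and 1795 CPM against 1951 and 2058 CPM, with 2 of 10 called lower. Of 10 astrocyte markers 2 were called lower, Gfap (log2 -1.03, edgeR adjusted p = 0.0460) and Aqp4 (-0.38, 0.0208), and of 10 markers each of microglia and of endothelial and mural cells 1 was lower, C1qc and Cldn5. Oligodendrocyte precursor markers overlapped, at 569.7 and 601.2 CPM against 540.1 and 578.3 CPM, while 9 of 10 myelinating markers were lower, at 2322 and 2389 CPM against 3363 and 3221 CPM. All 15 activity-regulated genes were lower in heterozygous libraries. Dentate granule neuron markers, from a brain region where newborn neurons persist, summed to 274.3 and 271.5 CPM in heterozygous libraries, 290.2 and 278.3 CPM at wild-type P100, and 225.8 and 262.6 CPM at wild-type P30. Of its 6 tested markers 1 was called higher in heterozygous libraries, C1ql2 (edgeR adjusted p = 0.00716), with 19 and 42 counts in heterozygous libraries, 3 and 2 counts at wild-type P100, and 1 and 3 counts at wild-type P30. The part of these cells in the values of the 10 genes was not tested.

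**Figure D3:**
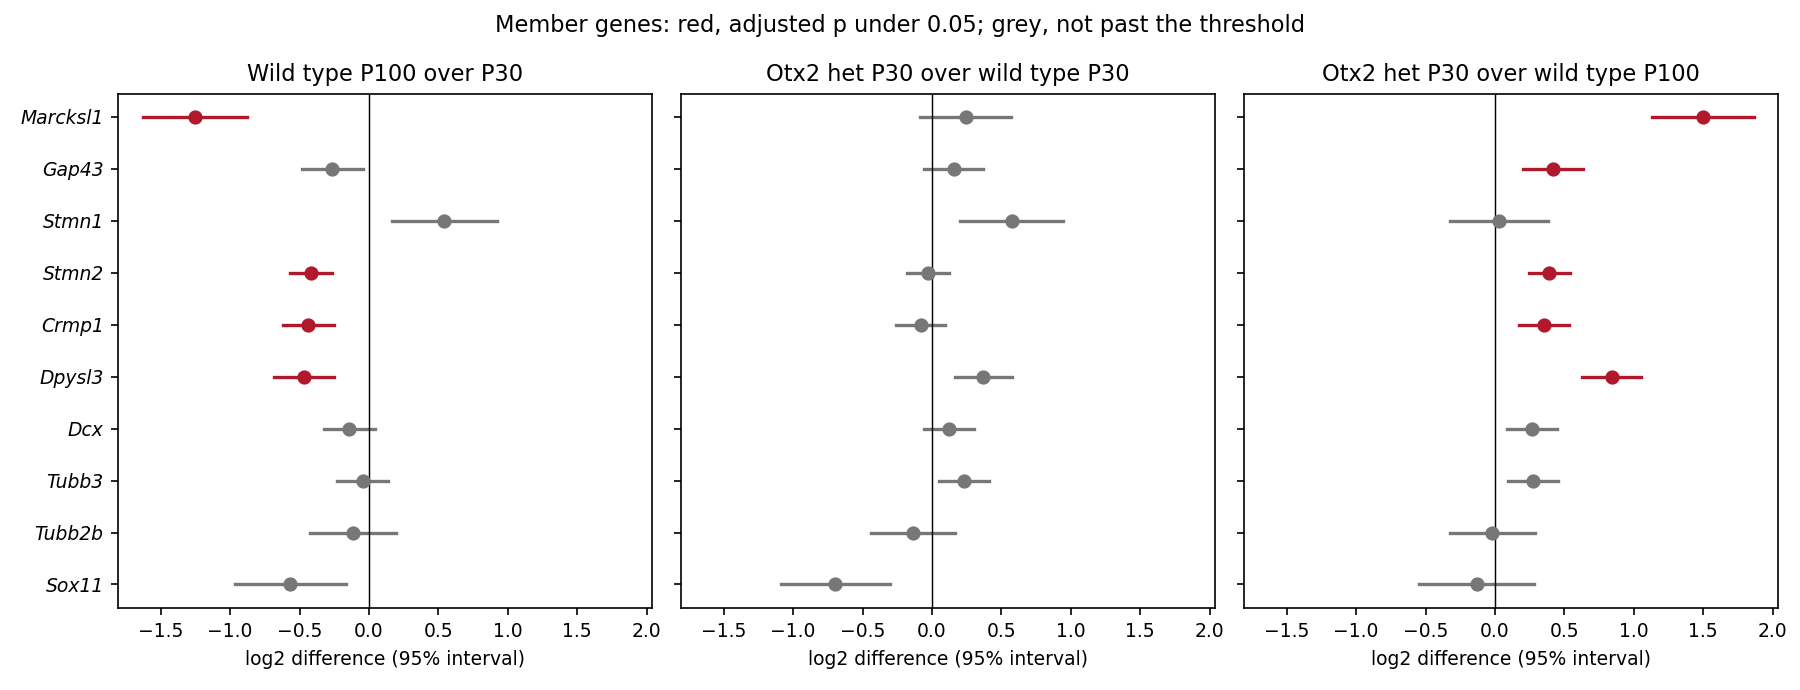
Log2 difference (horizontal axes) of each gene with its 95% interval (lines) in the 3 comparisons, red where the edgeR adjusted p was under 0.05 and grey elsewhere. In the first panel 4 genes are red and below 0, in the second none is red, and in the third 5 are red and above 0.

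Set against wild-type P100, heterozygous P30 libraries had higher levels of 5 of the 10 genes: Marcksl1, Dpysl3, Gap43, Stmn2 and Crmp1. Of all genes tested, 2.44% were called higher, 2.66% lower and 5.1% in either direction, and no member was called lower. Age, genotype and sex of the pools all differ here and cannot be told apart, and the comparison shares libraries with both others. It measures directly how far the 2 groups that were each set against wild-type P30 lie from each other.

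Marcksl1 averaged 22.5 ± 0.698 CPM in heterozygous P30 libraries and 8.07 ± 2.40 CPM in wild-type P100 libraries (SD, n = 2 each), 2.82-fold higher (log2 1.50, SE 0.17, edgeR adjusted p = 2.67e-04). Dpysl3 averaged 80.8 ± 5.13 CPM and 45.1 ± 4.13 CPM, 1.79-fold higher (log2 0.84, SE 0.10, edgeR adjusted p = 3.12e-04). Both passed under all 17 alternatives, with a log2 difference of 1.53 for Marcksl1 and 0.90 for Dpysl3 when heterozygous replicate 2 was left out. The differences of Dpysl3 with age (log2 -0.47) and genotype (0.37) had opposite signs, and the second was not called. Those of Marcksl1, Gap43, Dcx and Tubb3 had opposite signs as well, while those of Stmn1, Stmn2, Crmp1, Tubb2b and Sox11 had the same sign. Of Marcksl1, Gap43, Dcx and Tubb3, none was called with genotype and only Marcksl1 with age. The age intervals of Dcx and Tubb3 and the genotype intervals of Marcksl1, Gap43 and Dcx included 0. Against wild-type P100, Gap43 reached a log2 difference of 0.42 (SE 0.10, edgeR adjusted p = 0.0282). Stmn2 reached one of 0.39 (SE 0.07, edgeR adjusted p = 0.00578) and Crmp1 one of 0.35 (SE 0.08, edgeR adjusted p = 0.0275).

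These 3 calls depended on single libraries. Without heterozygous replicate 2 the log2 differences were 0.53 for Gap43, 0.42 for Stmn2 and 0.36 for Crmp1. Crmp1 lost the call without wild-type P100 replicate 2 (edgeR adjusted p = 0.23), heterozygous replicate 1 (0.148) or heterozygous replicate 2 (0.121). Gap43 lost it without wild-type P100 replicate 2 (edgeR adjusted p = 0.255) or heterozygous replicate 1 (0.258), and Stmn2 without wild-type P100 replicate 1 (0.068) or heterozygous replicate 1 (0.066). Tubb3 and Dcx stood at the same log2 difference of 0.27, with edgeR adjusted p-values of 0.0812 and 0.0913 and intervals from 0.09 to 0.45. Sox11 (-0.13, -0.54 to 0.28), Stmn1 (0.03, -0.32 to 0.38) and Tubb2b (-0.02, -0.33 to 0.29) had intervals on both sides of 0. Without heterozygous replicate 2 these stood at 0.30 for Tubb3, 0.26 for Dcx, -0.23 for Sox11, 0.0063 for Stmn1 and 0.034 for Tubb2b, and none was called. By ranges, 7 members had both heterozygous P30 libraries above both wild-type P100 libraries, against 25.4% of all genes. Oligodendrocyte precursor markers were also higher, 4 of 9, as were 4 of 10 deep layer markers and 7 of 10 myelinating markers. Of 10 layer 4 neuron markers 4 were lower, Scnn1a, Rspo1, Whrn and Tmem215, and 1 was higher, Lmo3, while 6 of 15 activity-regulated genes were higher. The part of these cells and of neuronal activity was not tested.

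Isoforms of a gene shared much of their counts and are not independent, so agreement among them cannot show whether the counted one stands alone. In a fit over 62163 transcripts, 4 of the 6 Dpysl3 transcripts passed the threshold as lower at P100, with log2 differences from -0.65 to -0.47 and edgeR adjusted p-values from 0.00921 to 0.0475. Both Crmp1 transcripts were lower, at -0.44 and -0.45. The 5 Stmn1 transcripts all had positive log2 CPM differences with age, from 0.41 to 0.54, and with genotype, from 0.57 to 0.72, and none was called. In the same fit, the counted transcripts of Dpysl3 (0.38, edgeR adjusted p = 0.0403) and Sox11 (-0.69, edgeR adjusted p = 0.0483) passed the threshold for genotype at P30, on each side of 0. The other 5 Dpysl3 transcripts did not pass it, with log2 differences from 0.20 to 0.89 and edgeR adjusted p-values from 0.229 to 0.733. Counts summed over transcripts gave Dpysl3 a log2 difference of 0.32 (edgeR adjusted p = 0.229) and Stmn1 one of 0.64 (edgeR adjusted p = 0.0329). A read counted in more than 1 isoform enters such a sum more than once, so these p-values may overstate the reads sampled.

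For Dcx the transcripts had log2 CPM differences of both signs with age. The transcript ENSMUST00000139920 had 34.8% and 35.5% of the counts of the main one in heterozygous P30 libraries, 38.6% and 38.8% in wild-type P100 libraries, and 32.6% and 26.4% in wild-type P30 libraries. ENSMUST00000125768 had 30.7% and 31.4% in heterozygous P30 libraries, 34.8% and 35.6% in wild-type P100 libraries, and 27.9% and 24.8% in wild-type P30 libraries. Both shares were highest in the P100 libraries. The log2 CPM differences at P100 over P30 were 0.24 and 0.27 for these, against -0.14 for the main transcript, and none was called.

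**Figure D4:**
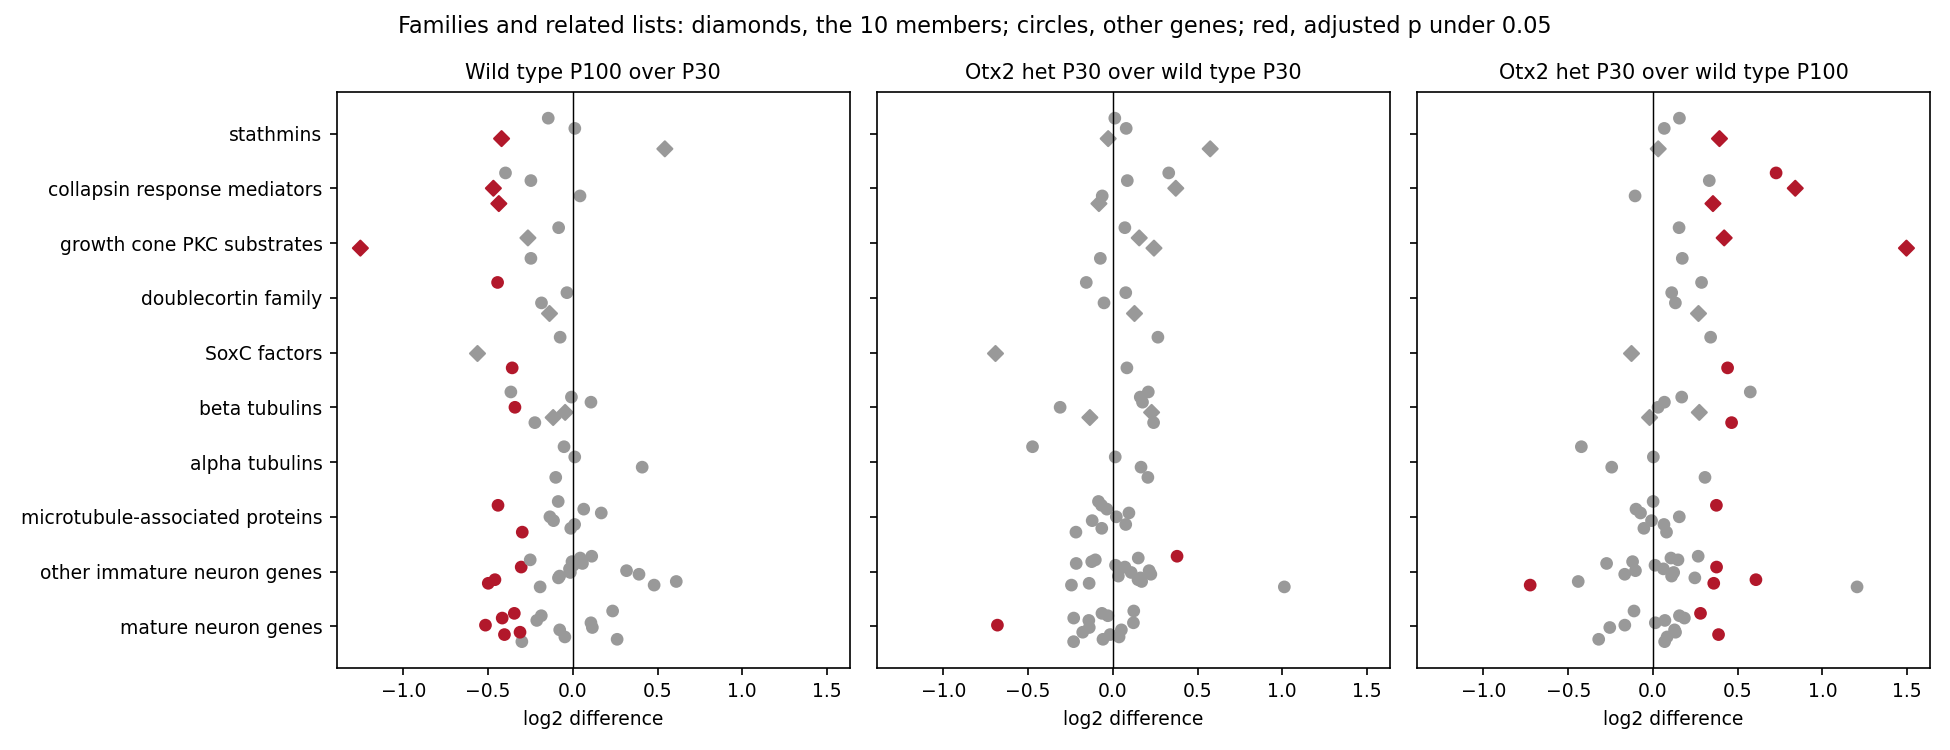
Log2 difference (horizontal axes) of the tested genes of each family or related list (rows) in the 3 comparisons, with the 10 genes as diamonds, other genes as circles and red for an edgeR adjusted p under 0.05. In the first panel every called gene lies below 0.

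Relatives of the 10 genes, and lists of other immature and mature neuron genes, held 66 further genes, of which 62 were tested. At P100 against P30 in wild type, 13 were called lower and none higher, with a median log2 difference of -0.08. The shares of all genes tested were 4.54% lower and 3% higher. These lists too were chosen with earlier results of these data known, so the contrast is a description. Among relatives, Sox4, the SoxC partner of Sox11, averaged 25.0 ± 0.265 CPM at P100 and 32.1 ± 0.615 CPM at P30 (log2 -0.36, edgeR adjusted p = 0.0477), although 54.6% of its bases are overlapped by Gm26735 on the opposite strand. The doublecortin-like kinase Dclk3 stood at -0.44 (edgeR adjusted p = 0.0287), the oligodendrocyte and neuron beta tubulin Tubb4a at -0.34 (0.0218), the axonal and dendritic microtubule protein Map1a at -0.30 (0.0216) and the plus-end binding protein Mapre1 at -0.44 (0.00643). None of the other stathmins, Stmn3 and Stmn4, nor the other collapsin response mediators was called with age.

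Of 18 tested genes in the list of other immature neuron genes, 3 fell with age and none rose, with a median of -0.01. They were Nrep, a regeneration-related protein, at 97.7 ± 5.92 CPM at P100 and 138.3 ± 5.21 CPM at P30 (log2 -0.50, edgeR adjusted p = 0.00266), Mllt11 at -0.46 (0.00307) and the axonal adhesion molecule L1cam at -0.30 (0.0299). In the list of mature neuron genes, 5 of 14 were called lower with age and none higher, with a median of -0.20. These were the synaptic vesicle proteins Syp (log2 -0.40, edgeR adjusted p = 0.00424) and Syn1 (-0.31, 0.0256), the neurofilament Nefm (-0.52, 0.00822), the postsynaptic calmodulin-binding protein Nrgn (-0.42, 0.0136) and the vesicular glutamate transporter Slc17a7 (-0.35, 0.00465). In Syp, 33.8% of the bases are overlapped by Gm14703 on the opposite strand. Whether the lists differed from each other was not tested.

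Between genotypes at P30, 1 of the 62 genes was higher and 1 lower, against 0.903% higher and 2.32% lower among all genes tested. Nfib, a transcription factor of neuronal and glial differentiation, averaged 165.5 ± 1.35 CPM in heterozygous libraries and 127.5 ± 11.7 CPM in wild-type libraries (log2 0.38, edgeR adjusted p = 0.0216). Nefm averaged 174.3 ± 12.4 CPM in heterozygous libraries and 279.2 ± 39.5 CPM in wild-type libraries (log2 -0.68, edgeR adjusted p = 0.00220). Without heterozygous replicate 2, Nefm kept its call (log2 -0.61, edgeR adjusted p = 0.0136) and Nfib did not (0.37, 0.0935). In heterozygous P30 against wild-type P100 libraries, 9 of the 62 were higher and 1 lower, against 2.44% higher and 2.66% lower among all genes tested. The higher ones were Mllt11 (log2 0.61, edgeR adjusted p = 5.40e-04), the collapsin response mediator Dpysl5 (0.73, 0.0221), Tubb2a (0.46, 0.00310), Sox4 (0.44, 0.0211), L1cam (0.38, 0.0126), Mapre1 (0.37, 0.0185), Nrep (0.36, 0.0214), Syp (0.39, 0.00701) and Slc17a7 (0.28, 0.0183), and the lower one was Nnat, an imprinted gene of the developing brain (-0.72, 0.0187). Of these 10 calls, 4 remained without heterozygous replicate 2, those of Mllt11, Syp, Tubb2a and Nrep. The log2 differences of all 10 kept their sign, between -0.71 and 0.63. L1cam and Syp lie on the X chromosome, and the sex of the pools differs between these groups. As 49.6% of the 50-base stretches of Tubb2a occur in other genes, Tubb2b above all, its counts are uncertain to that extent.

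The genes with the most similar pattern over the 6 libraries were found by the Euclidean distance of log2 CPM centred on each gene's mean, among 9630 tested genes with a mean of at least 10 CPM. For Marcksl1 they were Frzb, a secreted Wnt antagonist, at a distance of 0.539, Igfbp2, a binding protein of insulin-like growth factors, at 0.649, and the matrix protein Sparc at 0.708. None came close to Marcksl1, whose P100 libraries also differed from each other. Stmn2 had close neighbours in Ndufa8 (0.0621), Gpi1 (0.0673) and Adap1 (0.073), and Crmp1 in Cpe (0.0659), Mapre1 (0.103) and Lrrc73 (0.106). Those of Gap43 were Trappc13 (0.167), Gm14539 (0.169) and Kctd7 (0.17), and those of Dpysl3 included Rai14 (0.184) and Ptpro (0.231). Neighbours were sought only for members called in a comparison, and none of these had another member among its 3 nearest genes. Stmn1 and Sox11 lay below 10 CPM and were not candidates.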

How the data were processed

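The 6 libraries hold RNA of visual cortex layer IV, from tissue of 4 pooled mice per condition, with each condition in duplicate. The values deposited by the authors are raw read counts per Ensembl transcript, per the file headers. Per the submitters' processing notes, the build was mm10 and the tools included DESeq 1.8.3, HTSeq and Bowtie. Settings, annotation and strand use are not given in the sources used here. Per the file headers, the comparison tables deposited by the authors list for each transcript the group signal (mean of counts over size factors), the fold ratio, the log2 ratio and the raw and adjusted p-value. They were used only where named.

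The files paired 85864 transcripts with 34980 genes. The 9669 transcripts without a gene held 13.96% of the counts and were left out. Isoforms of a gene had similar counts (median ratio of the second to the top transcript 0.874), which reads counted in more than 1 isoform would give, so each gene was represented by its transcript with the highest total. Low counts were removed by filterByExpr with a minimum count of 10 and a minimum total of 15, and TMM factors ran from 0.968 to 1.02. The quasi-likelihood test of edgeR 4.0.16 (R 4.3.3) was fitted with the 3 groups as 1 factor, leaving 3 residual degrees of freedom. P-values were adjusted by Benjamini-Hochberg over all 15841 genes, with a threshold of 0.05. The procedure was tested on simulated data. Within groups, the chi-square per degree of freedom over genes was 4.17 to 5.40, above sampling noise. Coordinates, lengths and shared 50-base stretches came from GENCODE M21 on mm10, and promoters from RefSeq on GRCm38.p6.

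The 10 genes, the family and marker lists and the settings were chosen with earlier results of these data known. Named beyond the 10 genes are list genes past the threshold in a comparison, and the 3 genes nearest in pattern to each called member, of which 1 is not reported here. Alternatives were RLE, upper-quartile and library-total scaling, no filter, a minimum of CPM 1 in at least 2 libraries, limma-voom (limma 3.58.1), DESeq2 1.42.0, counts summed over transcripts, a fit over all transcripts, a replicate block, only the 4 libraries compared, and each library left out in turn.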

Additional observations from a re-analysis of the deposited data

How the results depend on the processing

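Over 17 alternatives, 473 of 510 values of the 10 genes kept their direction and their side of the threshold. The gene counts over all genes depended on the filter and on how transcripts were combined. Without a filter, 764 genes were higher and 1096 lower at P100 against P30 in wild type, 392 higher and 728 lower in heterozygous against wild-type P30, and 758 higher and 715 lower in heterozygous P30 against wild-type P100. With counts summed over transcripts the age comparison had 297 higher, the genotype comparison 71 higher and 192 lower, and the third 246 higher and 256 lower. DESeq2 called 268 higher with age and 85 higher with genotype. In the genotype comparison at P30, 1 member was higher with library totals, no filter, limma-voom, counts summed over transcripts, the fit over all transcripts and the replicate block, and 1 was lower with no filter and the fit over all transcripts. Summed counts left 3 members higher in heterozygous P30 against wild-type P100.

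With single libraries left out, 118 to 417 genes were higher and 233 to 661 lower with age, 52 to 116 higher and 129 to 376 lower with genotype, and 120 to 469 higher and 135 to 473 lower in heterozygous P30 against wild-type P100. Members called lower with age numbered 2 to 4, members called higher with genotype 0 to 1, and members higher in heterozygous P30 against wild-type P100 2 to 5. Where a group was left with 1 library, it was assumed to vary like the others.

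A few values near 0 changed sign, and the cause was not tested. With single libraries left out, the log2 difference of Tubb3 with age ran from -0.15 to 0.052, and was 0.052 without wild-type P100 replicate 1 and 0.018 when wild-type P30 replicate 1 was left out. That of Stmn2 with genotype ran from -0.08 to 0.025, and was 0.0068 with library totals, 0.025 without wild-type P30 replicate 1 and 0.0022 without heterozygous replicate 2. In heterozygous P30 against wild-type P100, Stmn1 ran from -0.032 to 0.091, with -0.032 without wild-type P100 replicate 1, Sox11 from -0.28 to 0.053 (0.053 without that library), and Tubb2b from -0.10 to 0.06, with 0.06 without wild-type P100 replicate 2 and 0.034 without heterozygous replicate 2.

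The labels number the replicates 1 and 2 in each group, but nothing says that equal numbers share a batch or litter. Deviations of equally numbered libraries had correlations of -0.0041, 0.1002 and -3e-04 between pairs of groups, so the numbers were not taken as pairs. With the replicate number as a block, 5 members were lower with age, Gap43 (adjusted p = 0.031) besides the 4 above, and Dpysl3 was higher with genotype (adjusted p = 0.0224). With 2 libraries per group, differences of low members such as Sox11, Stmn1 and Tubb2b are measured with wide intervals.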
